A study of Mus musculus with 12 samples.

Results

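The miR-17-92 cluster and its X-linked paralogue, the miR-106a-363 cluster, were followed in nuclear and cytoplasmic RNA of C166 cells, an endothelial line from mouse yolk sac. The members are every mature miRNA of the deposited table whose name belongs to miR-17, miR-18a, miR-18b, miR-19a, miR-19b, miR-20a, miR-20b, miR-92a, miR-106a or miR-363, whichever arm it comes from. This rule found 9 of the 350 miRNAs in the table, out of 20 mature forms that RefSeq lists for these names. Small RNA was sequenced from 12 libraries that form 6 groups of 2 replicates. Nuclear RNA came from cells kept under 1% oxygen for 2 h, for 24 h, or in normoxia (0 h), and cytoplasmic RNA came from the same 3 conditions. The labels name no transgene or other agent, and the results describe 1 cell line. The labels do not say which libraries came from 1 culture, so the p-values measure the spread between libraries only. Of the endothelial markers, miR-126a-3p had 332 to 860 normalized counts and miR-126a-5p was not in the table. None of 3 haematopoietic markers was in the table, but markers of other cell types were. Smooth muscle miR-143-3p ranked 2 of 350 and miR-145a-5p ranked 75. Of 3 muscle markers only miR-206-3p was in the table, with 250 to 926 normalized counts, and miR-1a-3p and miR-133a-3p were not. Of the other lists, 1 of 1 hepatocyte, 1 of 2 neuronal and 2 of 5 epithelial markers were present, at summed levels of 21.8 to 245 normalized counts. The part of these markers in the results was not tested.

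The miR-17-92 cluster is transcribed as a single host RNA, Mir17hg, from which several hairpins are cut by Drosha in the nucleus and by Dicer in the cytoplasm. Each hairpin has a 5′ and a 3′ arm, and the arm that is loaded into an Argonaute protein guides it to messenger RNAs that pair with its seed. The cluster is driven by Myc and E2F factors, is known as an oncogenic miRNA cluster, and is required for normal B cell, heart and lung development. In endothelial cells its members act on vessel growth, where miR-92a is known as a brake on angiogenesis and on the repair of vessels.

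The mature sequences are shown first because they decide which members share targets and which reads can be told apart. They come from RefSeq (GRCm38.p6) and run 5′ to 3′, with the seed, bases 2 to 8, in capitals. They are in order of position in the miR-17-92 cluster, with miR-106a-5p last.
miR-17-5p: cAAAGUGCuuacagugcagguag
miR-17-3p: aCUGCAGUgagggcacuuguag
miR-18a-5p: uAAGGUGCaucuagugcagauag
miR-18a-3p: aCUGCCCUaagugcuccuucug
miR-19a-3p: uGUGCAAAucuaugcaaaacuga
miR-20a-5p: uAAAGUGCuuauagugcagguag
miR-19b-3p: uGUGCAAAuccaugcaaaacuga
miR-92a-3p: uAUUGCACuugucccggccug
miR-106a-5p: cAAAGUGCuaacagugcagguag

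The 9 members carry 6 seeds. AAAGUGC is shared by miR-17-5p, miR-20a-5p and miR-106a-5p, and GUGCAAA by miR-19a-3p and miR-19b-3p. miR-18a-5p has AAGGUGC, which differs from the miR-17 seed by a single base, and miR-92a-3p has AUUGCAC. Counted from 1 at the 5′ end of the first-named miRNA, miR-17-5p and miR-106a-5p differ at 1 of 23 bases (U10A), miR-17-5p and miR-20a-5p at 2 (C1U, C12U), and miR-19a-3p and miR-19b-3p at 1 (U11C). Reads of each such pair are told apart by 1 or 2 bases, so their counts are uncertain where reads could be split between them.

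In GRCm38 the 6 hairpins of the miR-17-92 cluster lie within chr14:115043671-115044506 on the plus strand, all inside exon 2 of Mir17hg in the GENCODE annotation (chr14:115043271-115046727). The 6 hairpins of the miR-106a-363 cluster lie within chrX:52741693-52742567 on the minus strand. miR-19b-3p and miR-92a-3p are encoded at both places, by Mir19b-1 and Mir92-1 on chromosome 14 and by Mir19b-2 and Mir92-2 on chromosome X, and each is 1 row of the table that carries the reads of both loci. Of the forms that only the X-linked cluster encodes, miR-106a-5p alone was in the table, and miR-18b, miR-20b and miR-363 had no row. The hairpin of miR-17, shown because both of its arms were measured, has the arms in capitals.
Mir17: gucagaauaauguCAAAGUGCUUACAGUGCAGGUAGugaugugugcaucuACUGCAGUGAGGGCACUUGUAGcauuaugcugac

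The values are normalized counts, that is, reads divided by 1 DESeq2 size factor per library. They are relative to the other miRNAs of a library, so fewer cells and less RNA per cell cannot be told apart, and the miRNA content of a fraction as a whole was not measured. The table held 3379276 to 4375616 reads per nuclear library and 4708753 to 7787926 per cytoplasmic library. miR-21a-5p took 37.4% to 57.2% of the reads of the nuclear libraries and 48.8% to 60.3% of those of the cytoplasmic libraries. The nuclear 0 h library of replicate 2 stood apart, with the lowest miR-21a-5p share. The lowest value of any member rested on 23 reads.

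miR-92a-3p was the most abundant member, with a mean of 26913 normalized counts over the 12 libraries (rank 20 of 350), followed by miR-20a-5p with 14674 (rank 32) and miR-17-5p with 6991 (rank 52). These 3 made up nearly all reads of the members. miR-92a-3p took a median of 53.5% of the members' normalized counts over the nuclear libraries and 59.9% over the cytoplasmic libraries, and miR-20a-5p a median of 29.96% in the nucleus and 24.3% in the cytoplasm. A middle group held miR-18a-5p (mean 464), miR-19b-3p (mean 460) and miR-19a-3p (mean 400), whose ranges over libraries overlapped. The passenger arms miR-17-3p (mean 149) and miR-18a-3p (mean 76.8) and the X-linked miR-106a-5p (mean 55.1) were lowest, the last pair again with overlapping ranges. The mature forms have 21 to 23 bases, and the part of length in this order was not tested. Reads are not corrected for how well each sequence ligates. Together the members took 1.41% and 2.02% of the reads at 0 h, 1.22% and 1.21% at 2 h and 0.835% and 0.804% at 24 h in the nucleus, against 0.667% and 0.719% at 0 h, 0.863% and 0.656% at 2 h and 0.821% and 0.996% at 24 h in the cytoplasm. Their share was higher in both nuclear libraries than in both cytoplasmic libraries of 0 h, whereas the fractions overlapped after 24 h.

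miR-20a-5p, the most abundant guide with the miR-17 seed, had 21187 and 32141 normalized counts at 0 h, 26023 and 20522 at 2 h and 10984 and 10311 at 24 h in the nucleus, against 11296 and 9442 at 0 h, 10766 and 8251 at 2 h and 7084 and 8084 at 24 h in the cytoplasm. Its nuclear libraries lay above the cytoplasmic libraries of the same time at each time, a pattern not counted over all miRNAs. The nuclear 24 h libraries fell within the cytoplasmic 0 h range. miR-19b-3p had 842 and 977 normalized counts at 0 h, 750 and 575 at 2 h and 383 and 346 at 24 h in the nucleus, against 331 and 290 at 0 h, 308 and 242 at 2 h and 223 and 251 at 24 h in the cytoplasm. It was the 1 member of the 9 whose nuclear and cytoplasmic libraries did not overlap at all, a pattern shown by 33.4% of the 350 miRNAs.

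**Figure D1:**
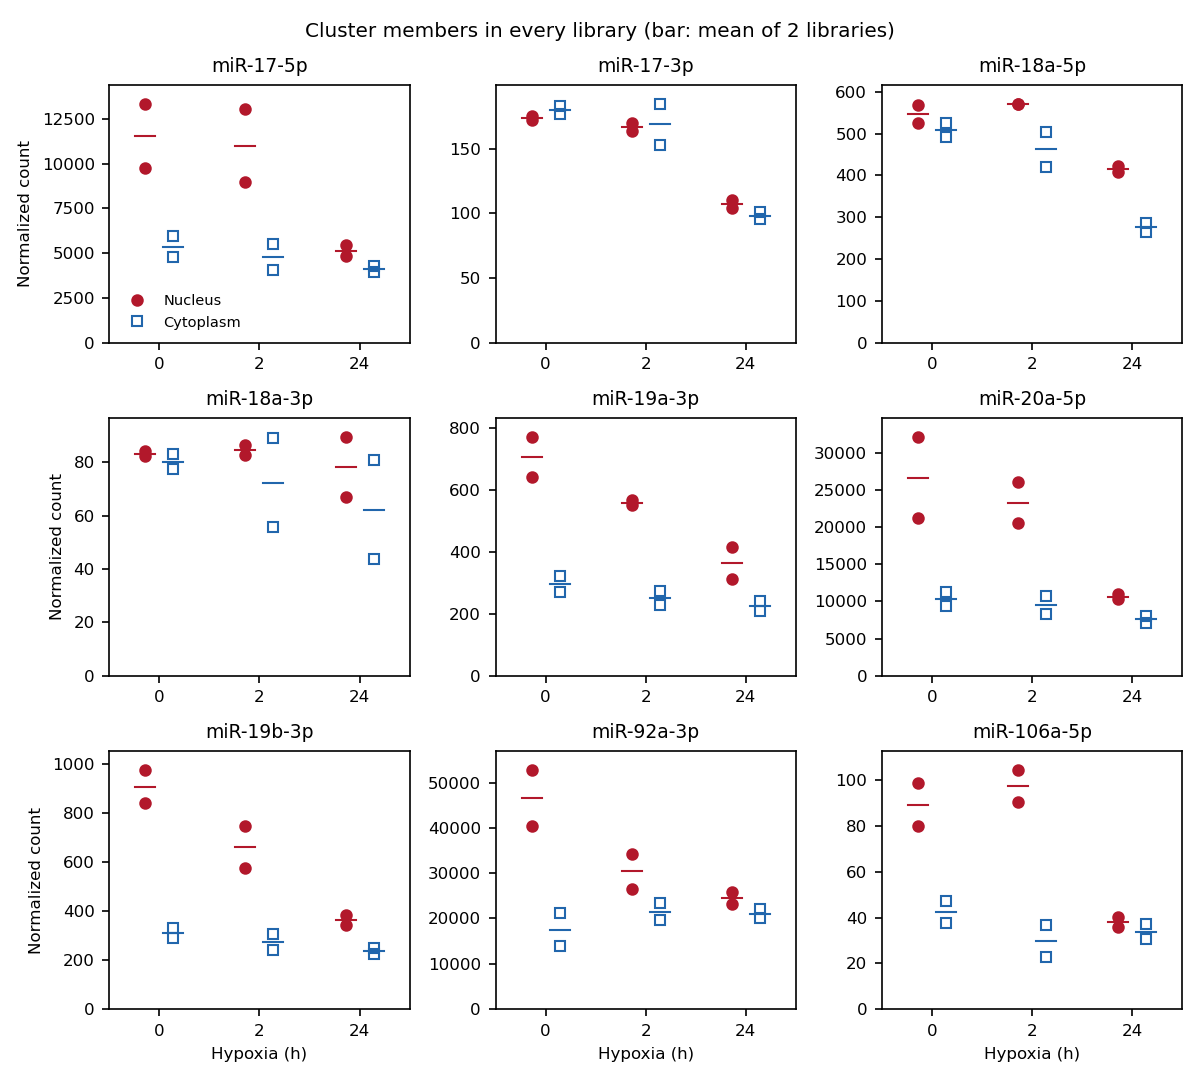
Normalized counts of the 9 members (vertical axes, from 0) after 0, 2 and 24 h of hypoxia (horizontal axes), with 1 point per library (filled circles, nucleus; open squares, cytoplasm) and a bar at the mean of 2 libraries. The nuclear points of miR-20a-5p, between 10311 and 32141, approach the cytoplasmic points at 24 h, whereas the 2 fractions of miR-17-3p lie together throughout.

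Nuclear and cytoplasmic libraries were first compared over all times to find members enriched in a fraction. miR-19b-3p (log2 difference 1.14, SE 0.24, adjusted p = 0.000965), miR-20a-5p (1.04, SE 0.26, adjusted p = 0.00266) and miR-19a-3p (1.03, SE 0.21, adjusted p = 0.000554) were higher in the nucleus by limma with Benjamini-Hochberg adjustment over the 350 miRNAs. Calls needed an adjusted p below 0.01 together with a 2-fold difference, on the scale log2(normalized count + 1), which understates differences of rare miRNAs. So 3 of 9 members were called higher in the nucleus, beside 12.3% of all miRNAs, and 0 of 9 lower, beside 17.4%. The median log2 difference was 0.87 over the members and 0.03 over all 350 miRNAs. The difference was above 0 for 9 of 9 members, as it was for 52.6% of all miRNAs.

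miR-106a-5p (log2 difference 0.98, adjusted p = 0.00777), miR-17-5p (0.87, adjusted p = 0.0062) and miR-92a-3p (0.71, adjusted p = 0.00629) passed limma's p threshold and missed 2-fold. miR-18a-5p, a guide arm known to act on connective tissue growth factor, had 0.34 (adjusted p = 0.164) and miR-18a-3p 0.23 (adjusted p = 0.323). miR-17-3p, cut from the same hairpin as miR-17-5p, had 0.02 with a 95% interval of -0.45 to 0.49. The calls depended on how libraries are scaled. Scaling to the total count left 0 of the 3 calls and TMM factors left 1, beside 30 and 36 of all 350 miRNAs instead of 43. A scaling shifts every miRNA of a library alike, and the total count moved the median of all miRNAs to -0.18. Relative to that median miR-20a-5p had 1.01 under either scaling. Such a relative value hardly changes under any scaling, so it cannot show whether the calls hold. Without the nuclear 0 h library of replicate 2 the count was 1, beside 35 of all 350 miRNAs instead of 43. It was 1 without the cytoplasmic 24 h library of replicate 1 (42 of all miRNAs) and 5 without either nuclear 24 h library (50 and 52 of all miRNAs).

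The comparison was then made at each time. At 0 h, 6 of 9 members were called higher in the nucleus, beside 19.7% of all miRNAs: miR-19b-3p (log2 difference 1.55), miR-92a-3p (1.43), miR-20a-5p (1.34), miR-19a-3p (1.25), miR-17-5p (1.0998) and miR-106a-5p (1.06), with limma's adjusted p between 2.04e-06 and 0.00297. At 2 h, 5 of 9 were called, beside 15.7% of all miRNAs, and miR-106a-5p had the widest gap, 1.71 (SE 0.28, adjusted p = 4.18e-05 by limma). That gap rested on 76 and 58 nuclear reads and 62 and 27 cytoplasmic reads, before normalization. miR-92a-3p was the 1 member called at 0 h and not at 2 h, where it had 0.49 (adjusted p = 0.0419 by limma). At 24 h, 0 of 9 were called, beside 5.14% of all miRNAs. miR-19a-3p then had 0.68 (adjusted p = 0.0104 by limma), miR-19b-3p 0.62, miR-18a-5p 0.59, miR-20a-5p 0.49, miR-17-5p 0.32, miR-92a-3p 0.21 and miR-106a-5p 0.17. The difference of miR-18a-5p ran the other way, with 0.10 at 0 h, 0.31 at 2 h and 0.59 at 24 h (adjusted p = 0.00963 at 24 h by limma). With miR-21a-5p left out of a total-count scaling, 0 of the 6 calls at 0 h and 1 of the 5 at 2 h were left. The count over all miRNAs fell too, to 34 from 69 at 0 h and to 34 from 55 at 2 h. The median of all miRNAs was then -0.55 and -0.38. Relative to it miR-20a-5p had 1.34 at 0 h and 1.27 at 2 h, values that a scaling hardly changes and that are no check of the calls.

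**Figure D2:**
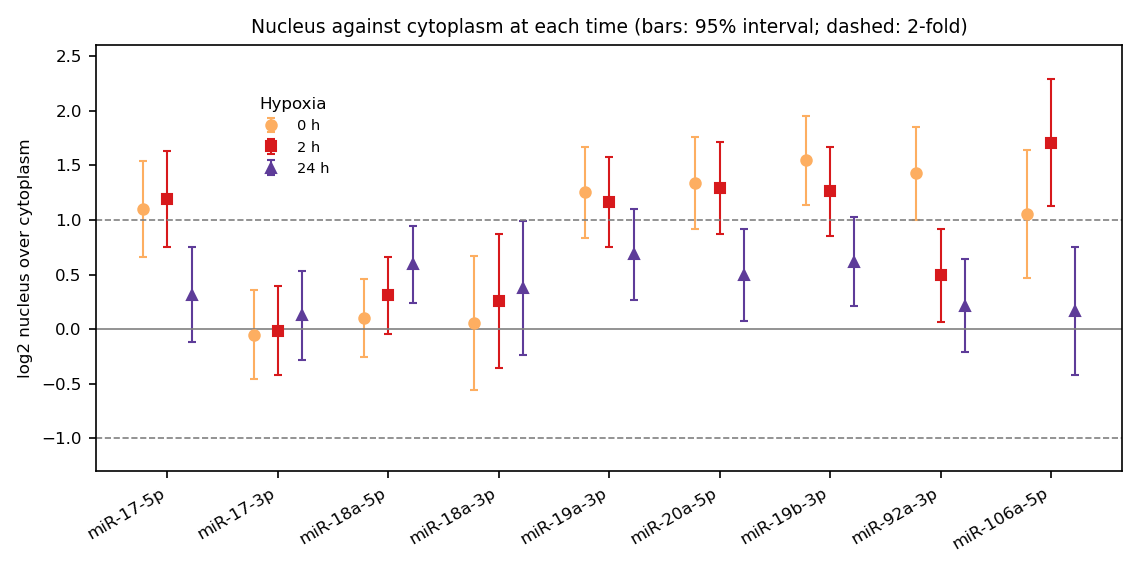
Log2 difference of nucleus over cytoplasm (vertical axis) for each member (horizontal axis) at 0 h (circles), 2 h (squares) and 24 h (triangles), with 95% intervals from limma; dashed lines mark 2-fold. Of the members, 6 lie above 2-fold at 0 h and none at 24 h, while miR-17-3p stays near 0.

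The response to 24 h of hypoxia was compared within each fraction. In the nucleus, 4 of 9 members were called lower after 24 h than at 0 h, beside 13.1% of all miRNAs, and 0 were called higher, beside 7.71%. miR-19b-3p changed by -1.32 on the log2 scale (SE 0.20, adjusted p = 0.000111), miR-20a-5p by -1.29 (SE 0.19, adjusted p = 0.000102), miR-106a-5p by -1.203 (SE 0.25, adjusted p = 0.00119) and miR-17-5p by -1.16 (SE 0.20, adjusted p = 0.000312), all by limma. miR-17-5p had 9768 and 13351 normalized counts at 0 h, 13033 and 8961 at 2 h and 5433 and 4825 at 24 h in the nucleus. These are all 3 members with the AAAGUGC seed and 1 of the 2 with GUGCAAA.

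miR-92a-3p had 40402 and 52754 normalized counts at 0 h, 26489 and 34266 at 2 h and 23112 and 25768 at 24 h in the nucleus, against 13962 and 21120 at 0 h, 19568 and 23421 at 2 h and 20079 and 22015 at 24 h in the cytoplasm. Its nuclear libraries at 2 h and 24 h all lay below both at 0 h, a joint pattern not counted over all miRNAs. Its cytoplasmic libraries overlapped across times. The nuclear change at 24 h was -0.92 (SE 0.17, adjusted p = 0.000498 by limma), short of 2-fold, and that of miR-19a-3p was -0.97 (adjusted p = 0.00117 by limma). The 3 other members changed less, with -0.69 for miR-17-3p (adjusted p = 0.0129), -0.39 for miR-18a-5p (adjusted p = 0.0846) and -0.10 for miR-18a-3p (adjusted p = 0.76) by limma. The median nuclear log2 change was -0.97 over the members and -0.02 over all miRNAs. The 24 h libraries lay below the 0 h libraries for 8 of 9 members, while 76.3% of all miRNAs did not overlap between these times in either direction.

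The nuclear count of members changed with single libraries. It was 1 without the nuclear 0 h library of replicate 2, in which the members took their highest share of reads (2.02%), and 0 without either 24 h library, which leaves that time with a lone sample assumed to vary like the others. The count over all miRNAs fell too, to 29 without that 0 h library and to 16 and 21 without a 24 h library, against 46 with every library. The change of miR-20a-5p lay between -1.59 and -0.99 with any 1 nuclear library left out. With a total-count scaling that left out miR-21a-5p, 0 members were called, beside 19 of all miRNAs, and the change of miR-20a-5p was -0.83, beside 0.43 for the median of all miRNAs.

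In the cytoplasm, 0 of 9 members were called at 24 h in either direction, beside 9.71% of all miRNAs lower and 4% higher. miR-18a-5p had 266 and 286 normalized counts at 24 h, against 526 and 493 at 0 h, a change of -0.88 (SE 0.19, adjusted p = 0.00112 by limma), and miR-17-3p had 95.5 and 101 at 24 h, against 177 and 183 at 0 h, a change of -0.87 (SE 0.22, adjusted p = 0.00332 by limma). Both passed the p threshold and missed 2-fold. Scaled to the total count, they had -0.46 (adjusted p = 0.175) and -0.44 (adjusted p = 0.199), and without the cytoplasmic 24 h library of replicate 1 limma's adjusted p was 0.0391 for miR-18a-5p and 0.0677 for miR-17-3p. miR-20a-5p had -0.45 (adjusted p = 0.0657), miR-18a-3p -0.42, miR-19a-3p -0.40, miR-19b-3p -0.39, miR-17-5p -0.37, miR-106a-5p -0.31 and miR-92a-3p 0.29 (adjusted p = 0.262), none past the threshold by limma. Scaled to the total count, the values of miR-17-5p, miR-19a-3p, miR-19b-3p and miR-106a-5p lay between 0.03 and 0.10, beside 0.32 for the median of all miRNAs. That median was -0.10 with the DESeq2 size factors. The sign of these members in the cytoplasm thus depends on the scaling and is not set by these data. The 24 h libraries lay below the 0 h libraries for 7 of 9 members, and 75.1% of all miRNAs did not overlap.

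**Figure D3:**
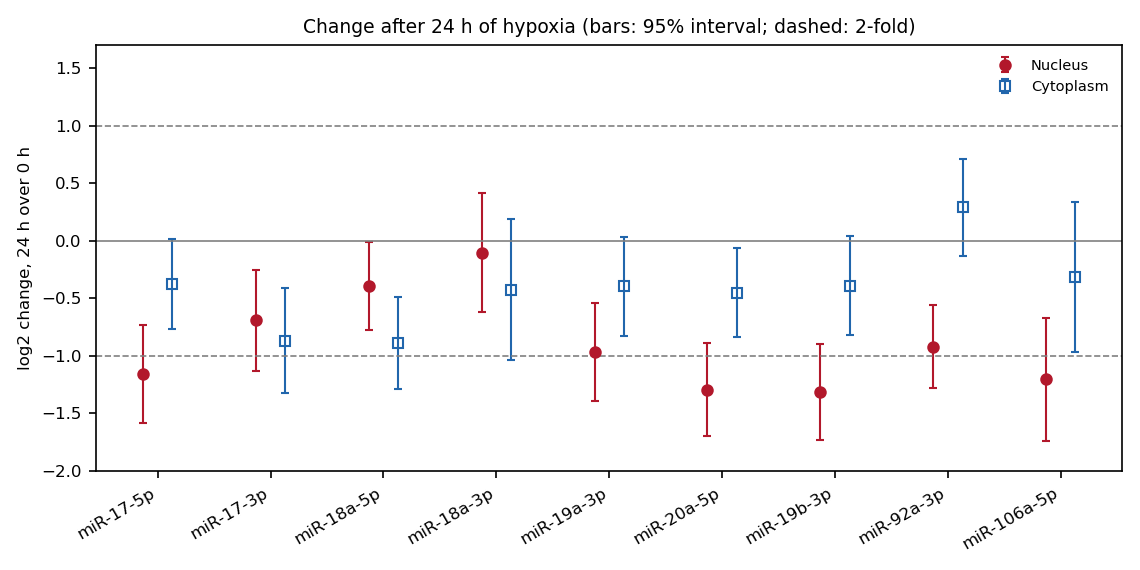
Log2 change at 24 h over 0 h (vertical axis) for each member (horizontal axis) in the nucleus (filled circles) and the cytoplasm (open squares), with 95% intervals from limma; dashed lines mark 2-fold. The nuclear values of miR-17-5p, miR-20a-5p, miR-19b-3p and miR-106a-5p lie between -1.32 and -1.16, and the cytoplasmic ones of miR-17-3p and miR-18a-5p are the lowest of that fraction.

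The difference between the fractions in this response was tested as an interaction in a fit of all 12 libraries, with calls at an adjusted p below 0.05. The nuclear change was lower than the cytoplasmic change for 4 of 9 members, beside 21.1% of all miRNAs, and higher for 0, beside 25.1%. miR-92a-3p had the largest difference, -1.21 (SE 0.28, adjusted p = 0.00322), followed by miR-19b-3p with -0.93 (SE 0.27, adjusted p = 0.0125), miR-20a-5p with -0.85 (SE 0.28, adjusted p = 0.0233) and miR-17-5p with -0.78 (SE 0.29, adjusted p = 0.0395) by limma. miR-106a-5p had -0.89 with the widest error of the 5p arms (SE 0.39, adjusted p = 0.0726), and miR-19a-3p -0.57 (adjusted p = 0.101). miR-18a-5p had 0.49 (adjusted p = 0.0992), miR-18a-3p 0.32 and miR-17-3p 0.18, none past the threshold. The count was 1 without the nuclear 0 h library of replicate 2, the nuclear 24 h library of replicate 2 or the cytoplasmic 24 h library of replicate 2, and 2 without the cytoplasmic 0 h library of replicate 2. Over all miRNAs these fits called 42, 45, 53 and 78 lower, against 74 with every library. The miR-21a-5p share moved with these groups, being higher in the nucleus after 24 h (57.0% and 57.2%) than in 0 h cells (45.1% and 37.4%), and lower in the cytoplasm after 24 h (51.0% and 48.8%) than in 0 h cells (60.3% and 57.7%), and its part in these differences was not tested. With miR-21a-5p left out of the total count used for scaling, 1 member, miR-92a-3p, was called lower, beside 38 of all 350 miRNAs, and 1, miR-18a-5p, higher, beside 125.

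After 2 h of hypoxia, neither fraction had a member called (0 of 9 in each), beside 0% of all miRNAs in the nucleus and 0% of those in the cytoplasm. At an unadjusted p under 0.05, limma gave 2 members among 102 miRNAs in the nucleus and 0 members among 39 in the cytoplasm. The 2 were miR-92a-3p, with -0.62 (SE 0.17, adjusted p = 0.046), and miR-19b-3p, with -0.47 (SE 0.20, adjusted p = 0.146). The largest difference of a member in the cytoplasm was -0.52 for miR-106a-5p, with a 95% interval of -1.17 to 0.13.

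Ratios within a library do not depend on its scaling, and are described without a test. The guide arms of miR-17 and miR-20a kept a nearly fixed ratio, with log2 miR-17-5p over miR-20a-5p between -1.27 and -0.998 in the nucleus and between -1.02 and -0.84 in the cytoplasm. For miR-17-5p over miR-106a-5p, which differ by 1 base, it lay between 6.62 and 7.07 in the nucleus and between 6.64 and 7.41 in the cytoplasm. Whether reads of miR-17-5p were counted as miR-106a-5p was not tested. miR-92a-3p, the last of the cluster, did not keep step with miR-20a-5p, since its mean log2 ratio to miR-20a-5p was 0.82 at 0 h, 0.38 at 2 h and 1.197 at 24 h in the nucleus, against 0.73, 1.18 and 1.47 in the cytoplasm. Single libraries lay as far apart as 0.03 and 0.74 in the nucleus at 2 h and as 0.31 and 1.16 in the cytoplasm at 0 h, so the replicates were as far apart as the times. At 24 h the nuclear libraries had 1.07 and 1.32, below both cytoplasmic libraries with 1.45 and 1.503. miR-18a-5p over miR-20a-5p had a mean of -5.57 at 0 h, -5.33 at 2 h and -4.67 at 24 h in the nucleus, against -4.34, -4.35 and -4.77 in the cytoplasm. At 0 h the nuclear libraries had -5.22 and -5.93, against -4.42 and -4.26 in the cytoplasm. At 24 h they had -4.69 and -4.65, against -4.73 and -4.82, so the fractions nearly met. How often ratios of other miRNAs separate in this way was not counted.

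The arms of a hairpin were compared in the same way, with a test over the 100 pairs of 5′ and 3′ arms in the table. The log2 ratio of miR-17-5p over miR-17-3p lay between 5.44 and 6.31 in the nucleus and between 4.70 and 5.39 in the cytoplasm, ranges that nearly meet. The nuclear ratio was higher by 0.85 (SE 0.21, adjusted p = 0.00229 by limma), which missed 2-fold, and 0 of the 2 pairs of the cluster were called, beside 35% of all pairs higher and 14% lower in the nucleus. By time, the mean ratio of miR-17 was 6.03 at 0 h, 6.01 at 2 h and 5.56 at 24 h in the nucleus, against 4.88, 4.80 and 5.37 in the cytoplasm. The gap between fractions was thus smallest at 24 h. For miR-18a the ratio lay between 2.23 and 2.78 in the nucleus and between 1.81 and 2.89 in the cytoplasm, a difference of 0.11 with a 95% interval of -0.32 to 0.53. The median difference over all pairs was 0.30, and 65 of the 100 pairs had an adjusted p under 0.05 by limma.

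**Figure D4:**
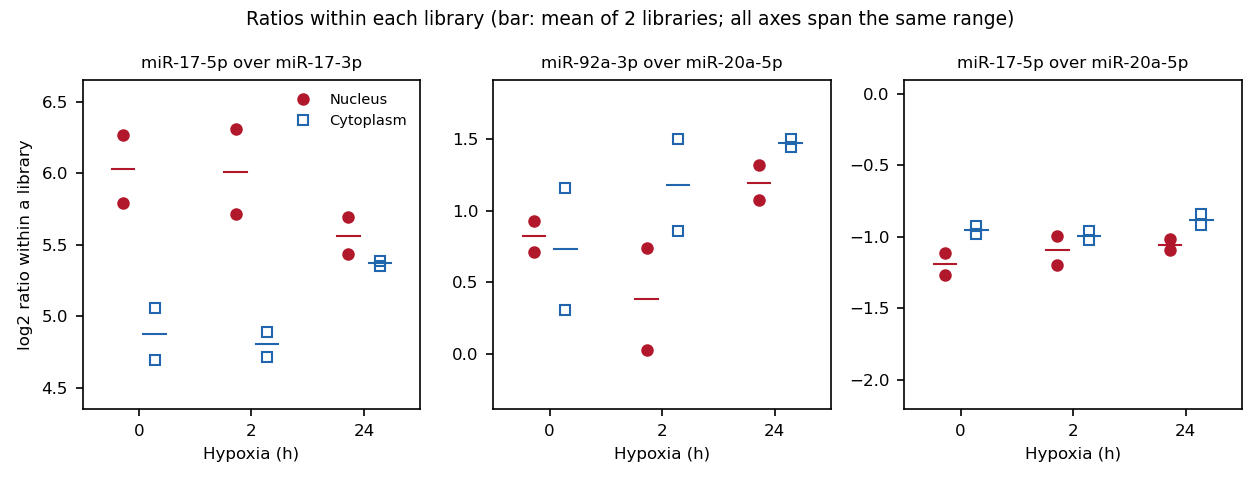
Log2 ratios within each library (vertical axes, all spanning the same range) after 0, 2 and 24 h of hypoxia (horizontal axes), with 1 point per library (filled circles, nucleus; open squares, cytoplasm) and a bar at the mean of 2 libraries. miR-17-5p over miR-17-3p lies between 5.44 and 6.31 in the nucleus and between 4.70 and 5.39 in the cytoplasm. miR-92a-3p over miR-20a-5p varies between replicates, and miR-17-5p over miR-20a-5p stays between -1.27 and -0.84.

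Across the 12 libraries the log2 values of miR-20a-5p correlated with those of miR-17-5p (Pearson r = 0.992), miR-19b-3p (0.981), miR-19a-3p (0.955) and miR-106a-5p (0.942), less with miR-92a-3p (0.764) and miR-18a-5p (0.736), and least with miR-18a-3p (0.541) and miR-17-3p (0.534). The libraries share fractions, times and size factors, and the pooled values include the gap between fractions. Over the 6 nuclear libraries the correlation of miR-20a-5p was 0.92 with miR-17-3p and 0.752 with miR-92a-3p. Over the 6 cytoplasmic libraries it was 0.856 with miR-17-3p and -0.656 with miR-92a-3p. The pooled order thus held in neither fraction, and the sign for miR-92a-3p held in the nucleus but not in the cytoplasm. The non-members most like miR-20a-5p over the 12 libraries were miR-93-5p (r = 0.986), miR-146a-5p (r = 0.960) and miR-140-3p (r = 0.944). Those most like miR-92a-3p were let-7g-5p (r = 0.918), miR-181b-5p (r = 0.913) and miR-298-5p (r = 0.904). miR-93-5p has the seed of miR-20a-5p and belongs to the third cluster of the family, miR-106b-25, which lies within the gene of the replication factor Mcm7.

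Relatives outside both clusters are given for comparison, with those that share a seed shown in the same notation.
miR-93-5p: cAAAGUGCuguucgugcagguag
miR-106b-5p: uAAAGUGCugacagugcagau
miR-25-3p: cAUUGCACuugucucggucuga
miR-92b-3p: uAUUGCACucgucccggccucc
miR-32-5p: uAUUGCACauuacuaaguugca
Over all times none of these 5 was called in nucleus against cytoplasm. miR-92b-3p (log2 difference 0.77, adjusted p = 0.00848), miR-106b-5p (0.72, adjusted p = 0.0029) and miR-93-5p (0.48, adjusted p = 0.0097) passed limma's p threshold and missed 2-fold. The values were 0.32 for miR-25-3p (adjusted p = 0.0175 by limma) and 0.09 for miR-32-5p (adjusted p = 0.775 by limma). miR-93-5p, with the seed of miR-20a-5p and chosen above by its correlation with it, had 10199 and 13063 normalized counts at 0 h, 11431 and 9801 at 2 h and 8310 and 7831 at 24 h in the nucleus, against 8148 and 7175 at 0 h, 7932 and 6455 at 2 h and 6274 and 6883 at 24 h in the cytoplasm. Its nuclear change at 24 h was -0.52 (SE 0.17, adjusted p = 0.0189 by limma), which was not called. miR-106b-5p, with the same seed and cluster, had a nuclear change of -0.23 at 24 h (adjusted p = 0.393 by limma) and an interaction of 0.195 (adjusted p = 0.628 by limma). At 2 h it was called higher in the nucleus than in the cytoplasm, by 1.002 (SE 0.22, adjusted p = 0.000801 by limma).

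miR-92b-3p, with the seed of miR-92a-3p, had 1.47 in nucleus against cytoplasm at 0 h (adjusted p = 5.22e-05 by limma) and an interaction of -1.26 at 24 h (adjusted p = 0.00915 by limma), values beside 1.43 and -1.21 for miR-92a-3p. The changes behind these interactions differed. miR-92b-3p changed by -0.43 in the nucleus (adjusted p = 0.131) and 0.83 in the cytoplasm (adjusted p = 0.0112 by limma), miR-92a-3p by -0.92 and 0.29. The more abundant miR-25-3p, with the same seed, had an interaction of -0.18 (adjusted p = 0.441 by limma). miR-32-5p, with the same seed and from a hairpin outside the 3 clusters, had 1053 and 1096 normalized counts in the nuclear 24 h libraries, against 560 and 475 in the nuclear 0 h libraries. Within the nucleus it was called higher at 24 h than at 0 h, by 1.06 (SE 0.19, adjusted p = 0.000415 by limma), where miR-92a-3p had -0.92. Of the other arms of the miR-106b-25 hairpins, miR-25-5p was called lower in the nucleus, by -3.45 (SE 0.33, adjusted p = 4.19e-07 by limma), with 26.5 to 116 normalized counts in nuclear libraries and 427 to 928 in cytoplasmic libraries. miR-93-3p had -0.85 and miR-106b-3p -0.10, neither called.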

How the data were processed

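Small RNA of 12 libraries was made with the NEBNext small RNA kit. The authors converted base calls with bcl2fastq, trimmed with Trimmomatic, aligned with Bowtie2 2.1.0 to miRBase release 20 and normalized with DESeq2. The deposited signal values are these normalized counts of 350 miRNAs, each with at least 10 reads per library. Deposited fold changes and p-values of the authors were not used. Multiplied by 1 size factor per library, 100% of values lay within 0.01 of whole reads. Differences were fitted with limma 3.58.1 in R 4.3.3 on log2(normalized count + 1) with a variance trend. The fraction was the only term over 12 libraries, group means were used for single times and the interaction, and the 6 libraries of a fraction were used for changes with time. The fits were tested on simulated data. edgeR was not run, since the table is normalized.

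The members, lists and tests were chosen with earlier results of these data known. The named miRNAs were all members, the miR-106b-25 cluster, miRNAs sharing a member's seed, and the 3 most correlated non-members of miR-20a-5p and of miR-92a-3p. Alternatives were other pseudocounts, filters, scalings and thresholds, no variance trend, limma-voom on recovered reads, time as a term, a replicate block, miR-17-5p summed with miR-106a-5p, and each library left out. Size factors within each fraction were added after the data were seen. Sequences came from RefSeq on GRCm38.p6, where 301 of 350 miRNAs matched, and exons from GENCODE. Figures used Python 3.11.15 and matplotlib 3.10.9. The RT-qPCR and imaging were not analysed here.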

Additional observations from a re-analysis of the deposited data

Results flagged for a closer look

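The 24 h response of 4 of 9 members was lower in the nucleus than in the cytoplasm by the interaction test over 12 libraries. Of all miRNAs 21.1% were called lower and 25.1% higher. The count changed when single libraries were left out. With miR-21a-5p left out of the total count used for scaling, 1 was left, beside 38 of all miRNAs. The nuclear minus cytoplasmic log2 change was -1.21 for miR-92a-3p, -0.93 for miR-19b-3p, -0.85 for miR-20a-5p and -0.78 for miR-17-5p. The nuclear 24 h libraries of each lay below both nuclear 0 h libraries, and 76.3% of all miRNAs did not overlap there in either direction. In the cytoplasm the 24 h libraries also lay below the 0 h libraries for miR-19b-3p, miR-20a-5p and miR-17-5p, while miR-92a-3p overlapped. Of all miRNAs 75.1% did not overlap between these times in the cytoplasm.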

How the results depend on the processing

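Of 1334 member values under 27 alternatives, 1300 kept their direction. Members called higher in the nucleus numbered 0 with scaling to the total count (30 of all 350 miRNAs). They numbered 0 when miR-21a-5p was left out of that total (23 of all) and 1 with TMM factors (36 of all). At an adjusted p under 0.05 at any fold they numbered 6 (95 of all). With a library left out they numbered 1 to 5 (35 to 52 of all). Under scaling without miR-21a-5p the counts were 0 at 0 h (34 of all) and 1 at 2 h (34 of all). They were 0 lower at 24 h in the nucleus (19 of all), and 1 lower (38 of all) and 1 higher (125 of all) in the interaction. At the looser threshold, 3 were higher in the nucleus than in the cytoplasm at 24 h (74 of all 350 miRNAs), 7 were lower at 24 h in the nucleus (86 of all) and 2 in the cytoplasm (73 of all), 1 was lower in the nucleus at 2 h (18 of all), and 1 arm pair was higher (43 of 100 pairs). At the stricter threshold 1 lower interaction was left (36 of all). With a library left out, 0 to 6 were lower in the nucleus at 24 h and 1 to 5 in the interaction.

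Signs that turned were of values not called. In nucleus against cytoplasm, miR-17-3p had -0.19 under the total count, -0.37 with miR-21a-5p also left out, and -0.0553 with TMM factors, and without miR-21a-5p miR-18a-5p had -0.0585 and miR-18a-3p -0.16. miR-18a-5p then had -0.44 at 0 h and -0.10 at 2 h. At 24 h, the nucleus over cytoplasm difference under the total count was -0.13 for miR-17-5p, -0.27 for miR-106a-5p and -0.23 for miR-92a-3p. Without miR-21a-5p it was -0.0522 for miR-106a-5p and -0.0099 for miR-92a-3p, and scaled to miR-186-5p -0.0203 for miR-106a-5p. The interaction of miR-18a-3p was -0.0893 with the total count and -0.15 with miR-186-5p, and that of miR-17-3p -0.24 and -0.29. The nuclear change without miR-21a-5p was 0.065 for miR-18a-5p and 0.35 for miR-18a-3p, and the cytoplasmic change with the total count was 0.03 for miR-19a-3p, 0.0373 for miR-19b-3p, 0.0533 for miR-17-5p and 0.10 for miR-106a-5p. Leaving out a library gave -0.10 to 0.12 for miR-17-3p in nucleus against cytoplasm, -0.31 to 0.10 in the nucleus and -0.86 to 0.0103 in the cytoplasm for miR-18a-3p at 24 h, -0.11 to 0.76 for its interaction, -0.0343 to 0.18 for the miR-18a arm ratio, and -0.0065 to 0.59 for miR-92a-3p in the cytoplasm at 24 h. The cause was not tested, beyond the shift that each scaling gives to every miRNA of a library.

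Same-numbered nuclear and cytoplasmic libraries deviated together with correlations of 0.07, 0.24 and 0.09 at 0 h, 2 h and 24 h, so the numbers were not taken as pairs. A replicate block left 3 members higher in the nucleus, 4 lower at 24 h in the nucleus and 4 in the interaction, and changed no call. Depth limits the rarest members, whose lowest value is 23 reads, and 2 libraries per group limit every test.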
